A study of Mus musculus with 3 samples.

Results

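The Hox genes encode homeobox transcription factors that stand in 4 clusters in the mouse genome, named A to D, and 38 of the 39 Hox genes were examined here for open chromatin in hematopoietic stem cells (HSCs). The members are 10 genes of cluster A, 10 of cluster B, 9 of cluster C and 9 of cluster D. They were taken by name, and they stand among 21755 protein-coding genes of chromosomes 1 to 19 and X that were counted in the same way. The cells were HSCs sorted as LSK CD150+CD48−CD34− from the bone marrow of wild-type female C57BL/6 mice of 8 weeks of age (C57BL/6J by the methods of the study), without treatment, and profiled by DOGMA-seq, which reads chromatin (ATAC), RNA and antibody tags of the same cell. There is 1 preparation with 1 library of each kind, how many mice gave the cells was not stated, and no condition is compared with another. Every value below is from the ATAC library and has no replicate. Intervals are exact 95% Poisson intervals for counts and exact (Clopper-Pearson) binomial intervals for shares, and they cover counting error only.

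Hox genes were duplicated in tandem and then as whole clusters, so that genes of like position in different clusters are paralogs and carry the same number. Low numbers stand at the end of the cluster that is active toward the head of the embryo (anterior) and high numbers at the end that is active toward the tail (posterior). The trithorax complexes, which include the methyltransferase encoded by *Kmt2a*, hold Hox genes active, and the Polycomb complexes hold them silent. In blood, genes of clusters A and B are the best known, *Hoxa9* and *Hoxb4* for their effects on the growth of stem and progenitor cells, and MEIS and PBX proteins bind DNA together with Hox proteins.

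The library held 37191568 fragments in the 3108 cells that passed, of 3757 barcodes called as cells from ATAC and RNA together, with a median of 11457 fragments per passing cell and a range of 3977 to 194399. The background of the genome was 3 fragments per kb, the median 1-kb bin among those with a fragment, and a window or bin was called open at 5 times that level or more, which is 30 fragments in the 2-kb window around a start. The sorted cell type was checked on its markers, by level, since 70.1% of all genes were open by this rule. All 11 HSC markers were open, with a median of 457 fragments and a range from 50 at *Ly6a* to 1811 at *Hlf*. The medians of the markers of erythroid cells, of granulocytes and monocytes, of B cells and of T cells were 246, 53, 60 and 19 fragments, and 4 of 5, 4 of 6, 4 of 5 and 1 of 5 of them were open, so the open calls of all but the T cell markers were near the share of all genes and do not set these cell types apart. *Epor*, *Csf3r*, *Ebf1* and *Cd3g* led these lists with 488, 156, 285 and 32 fragments, and *Ermap*, *Ctsg*, *Ms4a1* and *Cd8a* were lowest with 10, 2, 10 and 8. Among 5 genes of tissues other than blood, the median was 26, *Actn3* was highest with 1164 and *Alb* lowest with 3. The part of other cell types in the values of the Hox genes was not tested.

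All 38 Hox genes were open by this rule, against a background of 70.1% of all protein-coding genes. The counts ran from 37 fragments at *Hoxb3* to 1255 at *Hoxa5*, with a median of 335.5, close to the median of 321 over all genes. At the starts of open genes in general the median was 709 fragments, and 6 members were above it. Thus the Hox starts were rarely empty and rarely among the most accessible. Only 3 members, *Hoxa5*, *Hoxa4* and *Hoxa3*, were above the upper quartile of all genes, which was 1114 fragments.

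Cluster A stood above the others. Its 10 starts held a median of 837 fragments, against 334 in cluster B, 227 in cluster C and 258 in cluster D, and 8 of its members were above the median gene, against 5, 3 and 4. Per window, cluster A held 1.99 times as many fragments as cluster B (1.91 to 2.07), 2.83 times as many as cluster C (2.71 to 2.97) and 2.67 times as many as cluster D (2.56 to 2.79). Of the 7 most accessible members 6 were genes of cluster A. The exception was *Hoxb5*.

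**Figure D1:**
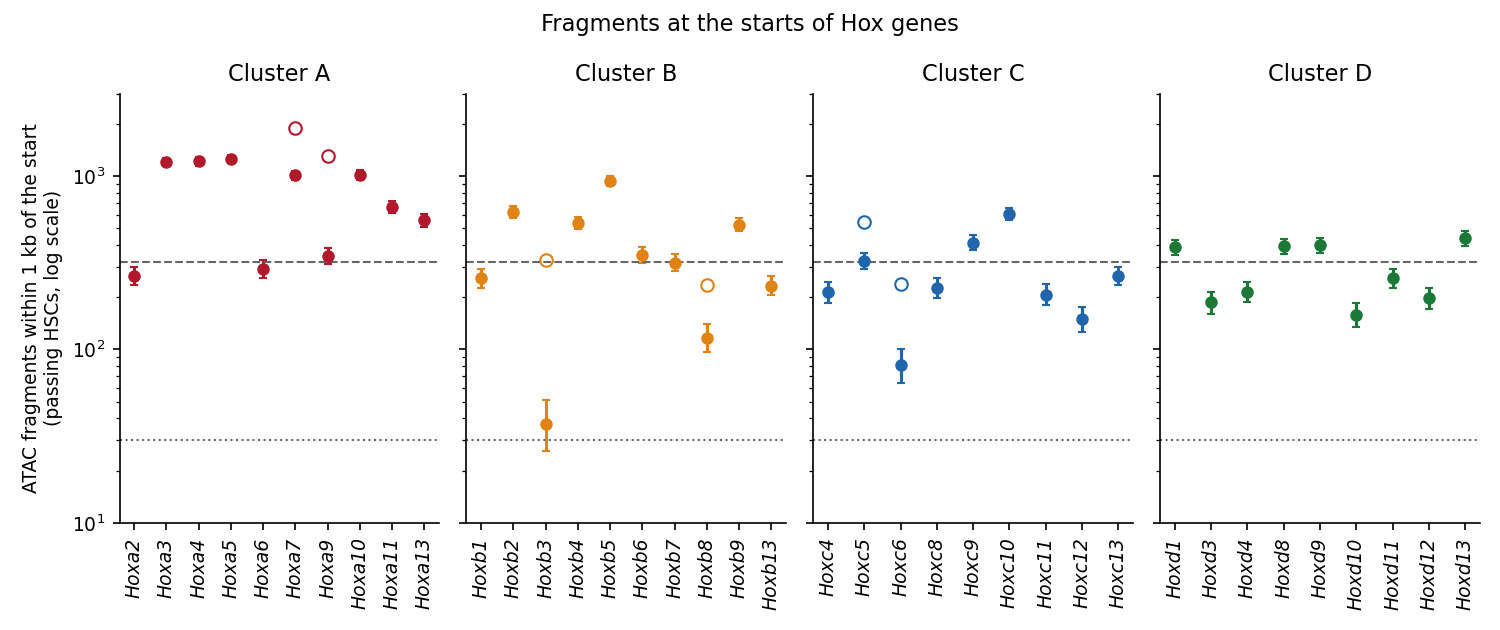
ATAC fragments within 1 kb of the start of each Hox gene (log scale), by cluster and in order of paralog number, in 3108 passing HSCs. Filled points are the principal start with 95% Poisson intervals, open circles the annotated start with the most fragments where it exceeds the principal start by over 1.2 times, the dashed line the median gene (321) and the dotted line the limit for open (30). Cluster A holds 5 members over 1000 fragments and the other clusters none.

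Within cluster A, which spans chr6:52162001-52261000 on the minus strand in mm10 (GRCm38), the starts differed widely. *Hoxa5*, with its start at 52204587, held 1255 fragments (1187 to 1326), and *Hoxa4*, with its start at 52191753, held 1218 (1151 to 1288). *Hoxa3* held 1207 fragments (1140 to 1277), counted at its principal start at 52213115. These 3 paralogs of adjacent number could not be told apart by their counts. The *Hoxa3* start lies between *Hoxa6* and *Hoxa7*, upstream of the bodies of *Hoxa4* and *Hoxa5*, so its anterior number is not its place in the cluster, and another of its 4 annotated starts held 39 fragments.

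Next in cluster A came *Hoxa10* with 1015 fragments (954 to 1079) and *Hoxa7* with 1012 (951 to 1076), whose intervals also overlapped. *Hoxa11* and *Hoxa13*, the most posterior genes of the cluster and known from the limb and the urogenital tract, held 662 and 557. Low values were found at *Hoxa2*, a hindbrain gene, with 265 fragments (234 to 299), at *Hoxa6* with 291 (259 to 326) and at the principal start of *Hoxa9* with 347 (311 to 386).

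*Hoxa9* and *Hoxa7* depended on which start was counted. *Hoxa9*, the Hox gene best known in leukemia, has 5 annotated starts. The window of Hoxa9-202 at 52226189 held 1309 fragments, whereas that of the principal Hoxa9-201 held 347. *Hoxa7* also has 5, and that of Hoxa7-204 at 52221854 held 1902 fragments, more than the principal start of any member. In all, 23 of the 38 members have more than 1 annotated start. A large change was also seen at *Hoxb3*, from 37 to 328 fragments, at *Hoxc6*, from 81 to 239, at *Hoxb8*, from 117 to 235, and at *Hoxc5*, from 324 to 545, when the start with the most fragments was taken. That start of *Hoxc5* lies 647 bp from the start of *Hoxc10*, so both windows share most of their length. The fragments cannot be given to 1 of the genes. At the principal starts, the windows of 9 members held an annotated start of another gene.

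In cluster B, chr11:96194001-96369000 on the plus strand, *Hoxb5* was alone at the top with 941 fragments (882 to 1003) around 96303512. *Hoxb2* followed with 622 (574 to 673) and *Hoxb4*, with its start at 96318267, with 537 (493 to 584), which *Hoxb9* with 525 could not be told from. *Hoxb6* held 351 fragments (315 to 390), *Hoxb7* 317, *Hoxb1* 258 and *Hoxb13*, a gene of the prostate and the tail end of the embryo, 234. *Hoxb8* was low with 117 (96.8 to 140). *Hoxb3* was the lowest of all members with 37 (26.1 to 51.0), and the lower end of its interval was under the limit for open.

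In cluster C, chr15:102921001-103037000 on the plus strand, *Hoxc10* led with 604 fragments (557 to 654), followed by *Hoxc9* with 414 (375 to 456) and *Hoxc5* with 324. *Hoxc4*, with its start at 103034395, held 214 (186 to 245). *Hoxc12* held 150 (127 to 176), and *Hoxc6* was lowest with 81 (64.3 to 101). The remaining members of the cluster, *Hoxc8*, *Hoxc11* and *Hoxc13*, lay between 207 and 265.

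Cluster D, chr2:74668001-74766000 on the plus strand, was the most even. Its highest member, *Hoxd13*, a gene of the digits, held 437 fragments (397 to 480), and the lowest, *Hoxd10*, held 158 (134 to 185). *Hoxd9*, *Hoxd8* and *Hoxd1* held 399, 395 and 390 fragments, and their intervals overlapped with each other and with that of *Hoxd13*. *Hoxd4* held 215 (187 to 246) and *Hoxd3* 187 (161 to 216). The principal start of *Hoxd3*, at 74711927, lies beside the outermost start of *Hoxd4*, at 74711929, whose window also held 187 fragments. These fragments cannot be given to either gene alone. *Hoxd11* and *Hoxd12* held 258 and 198.

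When all members were put in order of their counts, 33 of the 37 pairs of neighbors had overlapping intervals. Clear steps were seen between *Hoxa3* and *Hoxa10*, between *Hoxb5* and *Hoxa11*, between *Hoxb9* and *Hoxd13* and between *Hoxc6* and *Hoxb3*.

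The sequence before the start is shown for a high and a low gene of clusters A, B and D, so that its base composition can be read beside the counts. They are the members with the most and the fewest fragments among those whose entry in the RefSeq table (GRCm38.p6, 22 of 38 members matched) overlaps no annotated exon and begins within 100 bp of the start used here, and no gene of cluster C met this. Each line gives the 200 bases from 250 to 51 bases before the RefSeq start, 5′ to 3′, with CG dinucleotides in capitals.

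Hoxa5, chr6:52204638-52204837, minus strand: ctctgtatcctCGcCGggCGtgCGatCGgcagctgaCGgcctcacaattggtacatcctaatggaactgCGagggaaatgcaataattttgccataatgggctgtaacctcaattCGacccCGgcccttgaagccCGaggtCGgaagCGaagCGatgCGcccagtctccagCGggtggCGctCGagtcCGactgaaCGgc
Hoxa2, chr6:52164882-52165081, minus strand: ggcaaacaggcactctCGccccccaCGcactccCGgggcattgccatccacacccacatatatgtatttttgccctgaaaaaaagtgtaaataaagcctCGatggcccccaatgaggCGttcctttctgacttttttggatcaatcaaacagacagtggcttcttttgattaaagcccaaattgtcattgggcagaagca
Hoxb4, chr11:96318017-96318216, plus strand: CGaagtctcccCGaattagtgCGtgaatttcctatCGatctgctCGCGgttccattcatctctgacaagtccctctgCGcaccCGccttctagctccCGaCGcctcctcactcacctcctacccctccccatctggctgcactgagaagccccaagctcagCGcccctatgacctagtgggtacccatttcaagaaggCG
Hoxb8, chr11:96281655-96281854, plus strand: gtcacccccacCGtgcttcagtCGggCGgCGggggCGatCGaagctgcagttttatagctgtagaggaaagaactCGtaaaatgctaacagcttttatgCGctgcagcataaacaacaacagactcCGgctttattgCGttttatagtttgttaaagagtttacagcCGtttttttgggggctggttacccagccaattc
Hoxd13, chr2:74667975-74668174, plus strand: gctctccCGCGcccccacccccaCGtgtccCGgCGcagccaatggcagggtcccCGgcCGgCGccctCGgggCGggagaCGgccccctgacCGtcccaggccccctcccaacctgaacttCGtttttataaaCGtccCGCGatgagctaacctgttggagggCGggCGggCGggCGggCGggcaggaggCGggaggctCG
Hoxd10, chr2:74691641-74691840, plus strand: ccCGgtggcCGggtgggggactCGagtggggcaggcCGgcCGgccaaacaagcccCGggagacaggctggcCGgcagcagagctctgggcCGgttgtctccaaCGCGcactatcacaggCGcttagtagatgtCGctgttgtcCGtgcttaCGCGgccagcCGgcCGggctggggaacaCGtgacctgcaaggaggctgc

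The stretch before *Hoxa5* holds 19 CG dinucleotides and 167 fragment midpoints, and that before *Hoxa2* holds 5 and 26. The 2 stretches of cluster B are alike in CG, 12 at *Hoxb4* and 11 at *Hoxb8*, and in midpoints, 12 and 9, although the whole windows differ by 537 to 117. The stretches of cluster D are as rich in CG as that of *Hoxa5*, 23 at *Hoxd13* and 18 at *Hoxd10*, but held 26 and 25 midpoints. CG content alone thus did not order these 6 stretches.

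The same was seen over the whole 2-kb windows, whose CG dinucleotides were counted in the GRCm38 genome for all genes. Members had a median of 94 CGs, from 44 at *Hoxc6* to 194 at *Hoxa13*, against 63 in the median gene, and 31 of 38 were at or above that median. The 6323 genes with at least 94 CGs held a median of 1291 fragments and a lower quartile of 616, and 99.4% of them were open. The median over all 38 Hox genes, 335.5 fragments, was below that quartile, but it includes members with fewer than 94 CGs. Cluster D had the highest median CG count, 143, above cluster A with 121, cluster C with 88 and cluster B with 79.5, while its fragments were among the fewest. Across the 38 members Spearman's rho between CG count and fragments was 0.45; the points share 1 library.

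The promoters of the 22 matched members were searched for short motifs on both strands, over all 300 bases of each entry, and the shares were set beside those of 16433 promoters. CGCG was found in 14 of the 22 and in 51.5% of all promoters, and GGGCGG, a GC box, in 9 and in 48.7%. AGGTCA, a nuclear receptor half-site, was found in 7 of the 22 (31.8%) and in 14.0% of all promoters. TGTGGT, the core bound by RUNX factors, was found at *Hoxd10* alone, and in 14.8% of all. TGATTGAT, a letter string bound by PBX with Hox proteins, was found at *Hoxa2* and *Hoxd11*, and in 0.621% of all. TTTATGG was found at *Hoxd4* alone, and in 2.36% of all. AGATAAG, TGATTTAT and CCGGAAGT were in none of the 22, and in 2.57%, 0.785% and 5.65% of all promoters. TGATTTAT and TTTATGG can overlap in the letters TTTAT. The entries of *Hoxd4* and *Hoxa7* begin 5096 and 1068 bp from the starts counted here, so their matches do not belong to those starts. With 22 promoters these counts are descriptions.

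Clusters are dense with starts, so each was also read in 1-kb bins from its first to its last member, without regard to genes. Cluster A held 18695 fragments in 99 kb, or 189 per kb, which is 62.9 times the background (62.0 to 63.9). That fold depends on the background, and was 31.5 over the median bin of the flanks of all 4 clusters and 42.3 over a trimmed mean. Over the median bin of its own flanks, a setting added after the values were seen, cluster A was at 23.6, cluster B at 8.43, cluster C at 11.8 and cluster D, whose flanks had a median of 2 fragments, at 36.1, so the order of the clusters holds for the common background and not for this one. Cluster B held 84.3 per kb, 28.1 times the background (27.7 to 28.6), cluster C 70.5 per kb, 23.5 times (23.0 to 24.0), and cluster D 72.2 per kb, 24.1 times (23.5 to 24.6). Cluster A was 2.24 times as dense as cluster B (2.19 to 2.29), 2.68 times as dense as cluster C (2.61 to 2.75) and 2.62 times as dense as cluster D (2.55 to 2.69). Between clusters C and D the ratio was 0.977 (0.946 to 1.01), so they could not be told apart. Cluster B includes a long stretch without Hox genes between *Hoxb13* and *Hoxb9*. From *Hoxb9* to *Hoxb1* it was at 39.1 times the background, and cluster A was then 1.61 times as dense.

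The elevated signal was broad and was found away from starts too. Open bins made up 91.9% of cluster A, 73.1% of cluster B, 94.8% of cluster C and 84.7% of cluster D, against 10.2% of all bins of chromosomes 1 to 19. Within the clusters, the longest unbroken run of open bins was 78 kb in cluster C, 63 kb in cluster B, 61 kb in cluster A and 49 kb in cluster D. The runs of clusters A and D went on past the posterior end of the cluster, to 79 kb and 63 kb in all, and that of cluster A was chr6:52200001-52279000, from before *Hoxa5*. There were gaps as well, the longest being 14 kb without an open bin, chr11:96210001-96224000, in the stretch between *Hoxb13* and *Hoxb9*, 5 kb in cluster D, 2 kb in cluster A and 1 kb in cluster C. Bins whose center was over 1.5 kb from every annotated start were open in 80.0% of 30 bins in cluster A, with a median of 42 fragments, and in 92.6% of 68 bins in cluster C, with a median of 41. In clusters B and D 58.8% of 102 and 70.6% of 34 such bins were open, with medians of 20 and 25.

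**Figure D2:**
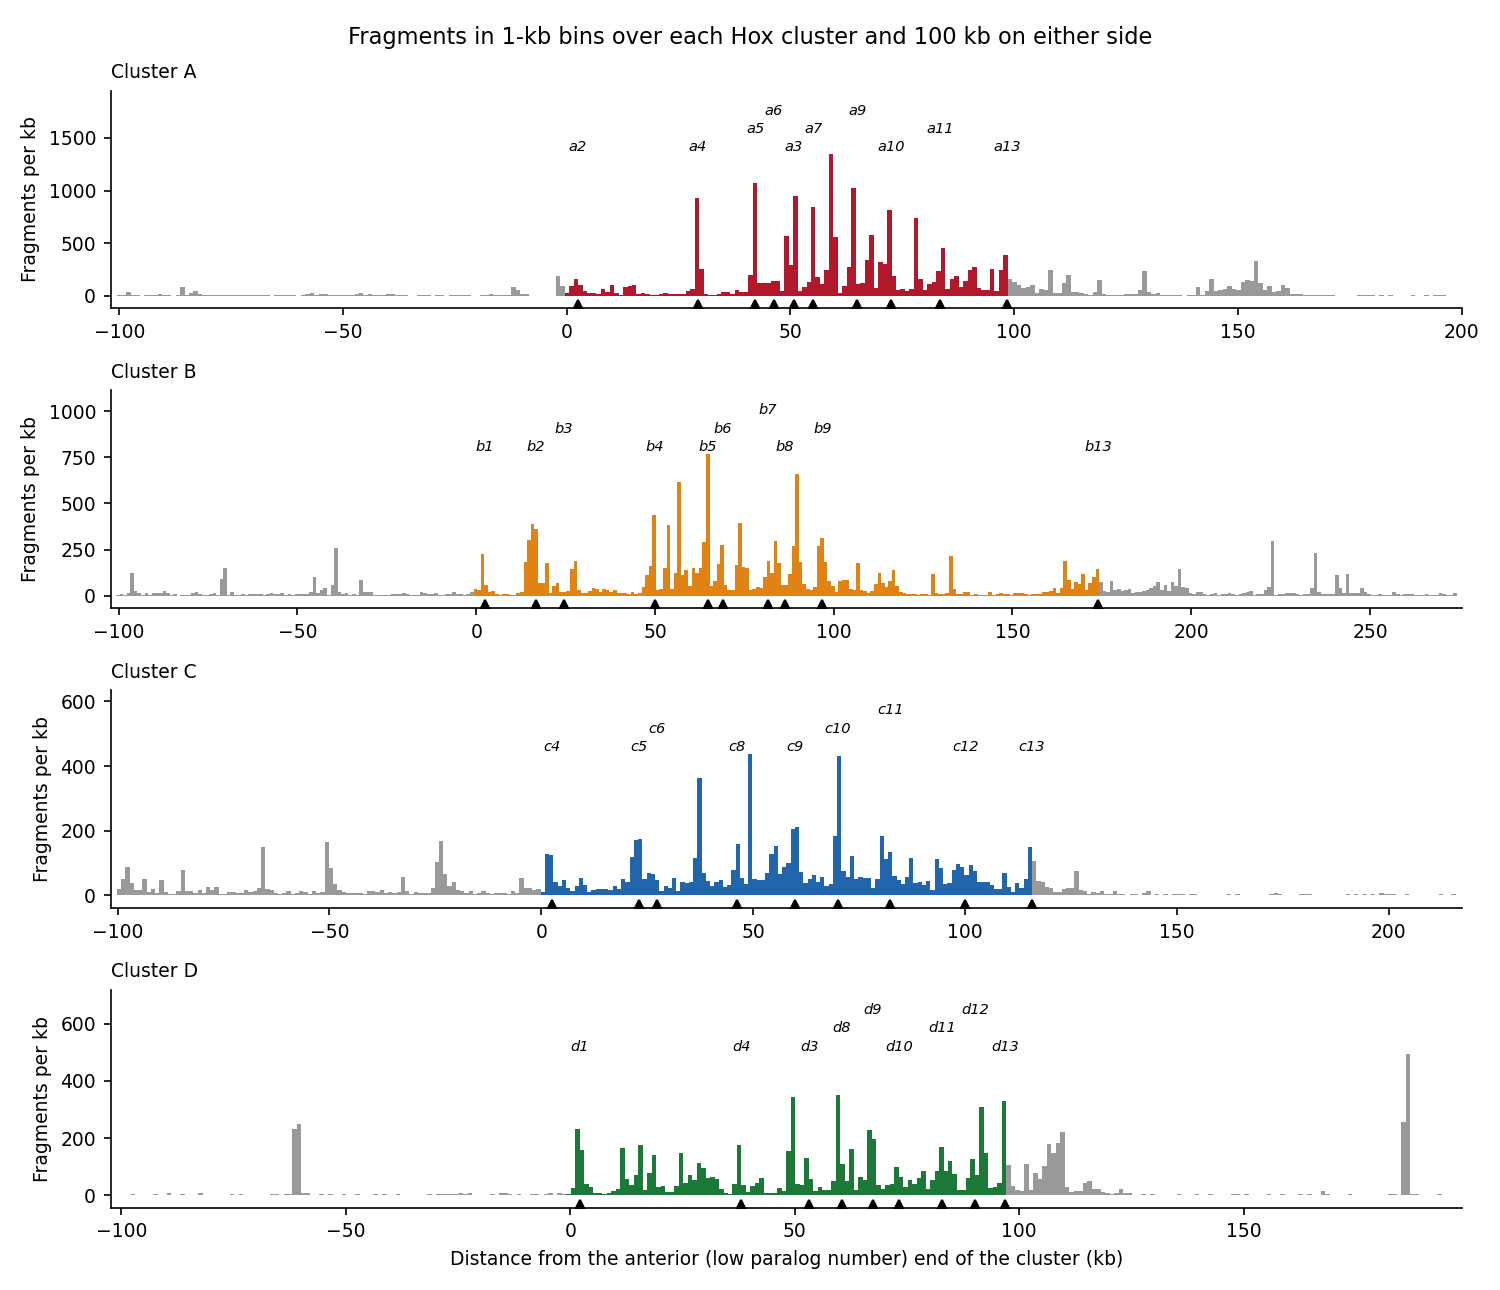
ATAC fragments per 1-kb bin along each cluster (color) and the 100 kb on either side (gray), by distance in kb from the anterior end. Triangles mark the principal starts of the members, labelled above by letter and number, and the y axes differ between panels. Bins of 1 gene of cluster A that is not reported, just outside its anterior end, are left out. The signal ends within a few kb of the anterior end of clusters B and D. Past the posterior end it runs on at clusters A and D, and the next 10 kb are also above background at B and C (36.7 and 32.8 fragments per kb).

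Cluster A was higher in its strong bins and in its median bin. Bins at 50 times the background or more, which are 1.54% of bins in the genome, numbered 32 of 99 in cluster A, 33 of 175 in cluster B, 11 of 116 in cluster C and 14 of 98 in cluster D. They held 79.1% of the fragments of cluster A and 62.3% of those of cluster B, but 32.6% in cluster C and 44.6% in cluster D. The 5 highest bins of cluster A held 28.5% of its fragments, against 19.5% to 22.2% in the other clusters. The median bin held 88 fragments in cluster A, 36 in B, 48 in C and 43.5 in D, so that of cluster A was 2.44, 1.83 and 2.02 times those of the others.

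The highest bins were set against the annotation. In cluster A the highest bin, chr6:52221001-52222000 in an exon of *Hoxa7*, held 1346 fragments (1275 to 1420), followed by a bin in an exon of *Hoxa5* with 1074 (1011 to 1140) and a bin in an exon of *Hoxa9*, chr6:52226001-52227000, with 1024 (962 to 1089). In cluster B the bin at the *Hoxb5* start held 769 fragments (716 to 825). The next 2 were intergenic. The bin chr11:96278001-96279000 held 659 (610 to 711) and lies 3405 bp from the nearest annotated start, which is of *Hoxb8*, and chr11:96311001-96312000 held 615 (567 to 666), 4590 bp from a start of the antisense gene *Hoxb5os*. Each of these 1-kb bins held more than the 2-kb start window of *Hoxb4*, the Hox gene of that cluster most used to expand HSCs.

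In cluster C the highest bin, with 438 fragments (398 to 481), was chr15:102987001-102988000, which lies in an annotated intron of *Hoxc5* 3107 bp from the nearest *Hoxc8* start. It could not be told from the bin at *Hoxc10* with 432 (392 to 475). A bin in introns of *Hoxc5* and *Hoxc6* held 363 (327 to 402). In cluster D the bins at *Hoxd8*, at *Hoxd3os1* and at *Hoxd13* held 352, 344 and 329 fragments, with overlapping intervals. Of the bins at 50 times the background, 11 of 33 in cluster B had their center over 1.5 kb from every annotated start, against 3 of 32 in cluster A, 3 of 11 in cluster C and 1 of 14 in cluster D. Of all bins, 102 of 175 in cluster B, 30 of 99 in A, 68 of 116 in C and 34 of 98 in D were that far from a start, so the share was lower among the strong bins in each cluster, and the clusters differ in the spacing of their starts.

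The 100 kb on either side of the clusters were less accessible. The interior was 6.60 times as dense as both flanks together in cluster A (6.40 to 6.80), 3.90 times in cluster B (3.77 to 4.04), 4.87 times in cluster C (4.67 to 5.08) and 4.58 times in cluster D (4.39 to 4.78). The edges were uneven. In the 10 kb next to the posterior end the density was 101.7 fragments per kb at cluster A, 36.7 at B, 32.8 at C and 71.7 at D. Next to the anterior end it was 79.8 at cluster A, over the 4 bins that remain without the gene that is not reported, and 8.4, 17.1 and 3.6 at B, C and D. Near the edge the posterior side was thus the denser in clusters B, C and D, while cluster A cannot be compared, since most of its anterior bins are left out and the 2 nearest the edge held 186 and 96 fragments against 158 and 128 on the posterior side. Over the whole flanks the posterior side was also the denser in clusters B and D, with 26.2 and 24.2 fragments per kb against 16.9 and 7.31. In cluster A it was 43.2 against 13.1 over the 94 bins that remain. In cluster C it was the other way, with 6.81 on the posterior and 22.1 on the anterior side. On the posterior side of clusters A and D stand *Evx1* and *Evx2*, homeobox genes related to Hox, whose start windows held 243 and 261 fragments.

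The strongest bins of the flanks lay in other genes or between genes. A bin in an exon of *Evx1* led the posterior flank of cluster A with 331 fragments, and an intergenic bin followed with 240. Beside cluster D, starts of *Lnpk* held 496 and 255 and those of *Mtx2* 249 and 232, with medians of 2.5 and 2 fragments per bin in these flanks. At cluster B bins in exons of *Ttll6* held 294 and 233 on the posterior side, and intergenic bins 256 and 148 on the anterior side. At cluster C intergenic bins held 168 and 164 on the anterior side and 106 and 75 on the posterior side. The bin with 106 has its center 603 bp from the start of *Hoxc13*, so it overlaps the start window of that member. On the anterior side of cluster A, bins in *Hotairm1*, a long noncoding RNA, held 186 and 96.

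Position within a cluster was compared by paralog number. Anterior genes (1 to 3) held a mean of 424 fragments per window, central genes (4 to 8) 500 and posterior genes (9 to 13) 402, over 7, 15 and 16 members. The medians were 265, 324 and 373, so means and medians ordered the classes differently. *Hoxa3* alone gave 1207 of the 2966 anterior fragments, and its principal start and that of *Hoxd3* are out of the order of the numbers. The ratio of anterior to posterior means was 1.05 (1.01 to 1.10), and its direction depended on the start, the window and the cluster. It was 0.884 with the outermost start (0.844 to 0.926), 0.972 in windows of 2000 bp on either side (0.939 to 1.01) and 0.932 without cluster A (0.877 to 0.989). It was 1.42 in windows of 500 bp on either side and 1.37 with fragments shorter than nucleosomal DNA. The classes by paralog number thus gave no single direction, and they do not measure place along the cluster. The bins of cluster A were uneven by place. The longest run of open bins inside it, chr6:52200001-52261000, reached the posterior end, left out the anterior part and held its 3 highest bins. The central genes were the highest class in clusters A and B, with 944 and 453 fragments per window. In cluster C, which has no anterior member, the central genes held 0.645 times as many as the posterior genes (0.593 to 0.701). In cluster D the 3 classes, at 289, 305 and 290, had overlapping intervals. Spearman's rho between paralog number and fragments was −0.13 in cluster A (10 genes), −0.19 in cluster B (10), 0.02 in cluster C (9) and 0.18 in cluster D (9), as a description within 1 library. It depended on the start, and with the start that held the most fragments it was 0.03, −0.38, −0.17 and 0.08.

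Paralogs of the same number were compared across clusters. At the principal starts the spread in group 3 ran from 1207 fragments at *Hoxa3* to 37 at *Hoxb3*, a ratio of 32.6, which rests on the start taken. With the start that held the most fragments of each gene, a comparison added after the values were seen, it was 6.19, between *Hoxa3* and *Hoxd3*. In group 10 *Hoxa10* held 6.42 times as many as *Hoxd10*, and in group 4 *Hoxa4* held 5.69 times as many as *Hoxc4*. Of the 10 groups with a member examined in cluster A, that member was the highest in 7, in each case with an interval clear of the next. The exceptions were group 2, led by *Hoxb2*, group 6, led by *Hoxb6*, whose interval overlapped with the next, and group 9, led by *Hoxb9*, in which the principal start of *Hoxa9* was the lowest of 4. With the start that held the most fragments, *Hoxa9* led group 9, and cluster A led 8 of the 10. The smallest spread at the principal starts was in group 12, with 198 fragments at *Hoxd12* and 150 at *Hoxc12*.

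The lengths of the fragments separated the members further. Fragments shorter than the DNA wound on a nucleosome, called short here, can fit within a nucleosome-free stretch, and longer ones can span a nucleosome. Short fragments made up 57.0% of fragments in the windows of all genes, 45.6% in the library as a whole and 37.7% (37.0 to 38.4) in the windows of the members. By cluster the share was 44.5% in A (43.4 to 45.6), 37.4% in B (35.9 to 39.0), 29.5% in C (27.7 to 31.3) and 25.6% in D (23.9 to 27.3), and no 2 of these intervals overlapped. It was highest at *Hoxa5*, 59.7%, and lowest at *Hoxc6*, 12.3%. Of the 38 members 34 were under the median of open genes, 49.2%, and 29 were under the lower quartile, 38.1%. The 4 at or above that median were *Hoxa3*, *Hoxa4*, *Hoxa5* and *Hoxb5*, which were also among the 6 most accessible members.

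The share of short fragments and the count rose together over the 38 members (Spearman's rho 0.84, over genes of 1 library and from the same fragments). *Hoxd11* and *Hoxd13* were examples of many long fragments at windows rich in CG, with 14.7% and 22.0% short. *Hoxa9* at its principal start had 22.5%. Over the whole interiors the short share was 40.8% in cluster A (40.1 to 41.5), 34.5% in B (33.7 to 35.3), 24.9% in C (24.0 to 25.9) and 26.1% in D (25.1 to 27.2). When short fragments alone were counted, 35 of 38 members were open, against 64.9% of all genes by the same rule, and cluster A was 4.39 times as dense as cluster C.

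**Figure D3:**
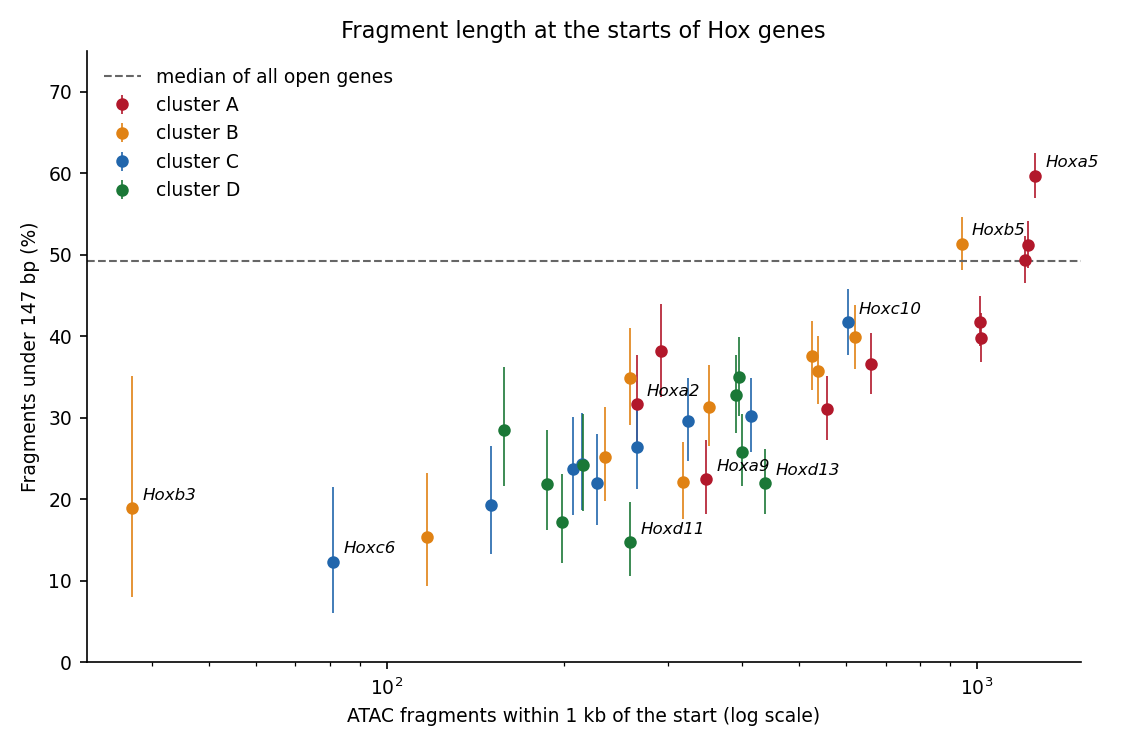
Share of fragments shorter than nucleosomal DNA (%) against the number of fragments (log scale) in the 2-kb window of each Hox start, with 95% binomial intervals and color by cluster. The dashed line is the median over open protein-coding genes, 49.2%. The members of clusters C and D sit under 42%, and those at or over the line are *Hoxa3*, *Hoxa4*, *Hoxa5* and *Hoxb5*.

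Most cells held a fragment in each cluster. At least 1 fragment in cluster A was found in 98.5% of the 3108 cells (98.0 to 98.9), in cluster B in 96.3% (95.6 to 96.9), in cluster C in 84.6% (83.3 to 85.9) and in cluster D in 82.1% (80.7 to 83.4). The clusters differ in length. In their flanks, which together are longer than each cluster, 75.6%, 66.2%, 53.0% and 57.6% of cells held a fragment. The median cell held 5 fragments in cluster A, 4 in cluster B, 2 in cluster C and 2 in cluster D. Single starts were met in fewer cells, from 35 cells (1.13%, 0.786 to 1.56) at *Hoxb3* to 896 cells (28.8%, 27.2 to 30.5) at *Hoxa3*. *Hoxa5* had a fragment in 28.6% of cells, *Hoxb5* in 23.4%, *Hoxb4* in 14.2%, *Hoxa9* in 9.56%, *Hoxc4* in 6.37% and *Hoxd4* in 6.08%. A cell without a fragment is not a cell with a closed start at this depth.

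As a background, the 601292 barcodes that were not called as cells were read, with a mean of 5.87 fragments each. Whether they hold free DNA or poor nuclei was not tested. The windows of the members held between 2 and 64 fragments each there, so at most 0.0106% of these barcodes had one. Per 1000000 fragments, the member windows together held 455 in passing cells (448 to 462), 444 in called cells that did not pass (408 to 482) and 283 in uncalled barcodes (265 to 301). The windows of all genes, summed, went from 449765 per 1000000 in passing cells to 255782 in uncalled barcodes. By cluster, the interior of A went from 503 per 1000000 in passing cells to 308 in uncalled barcodes and that of B from 397 to 261, a ratio of 0.613 and 0.657. In clusters C and D it went from 220 to 189 and from 190.4 to 158, a ratio of 0.858 and 0.830.

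The clusters also hold microRNA genes, which lie among the Hox genes and in part target Hox transcripts. Their mature sequences, from RefSeq (GRCm38.p6), are shown because the families are shared between clusters, with the seed (bases 2 to 8) in capitals.

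miR-10a-5p: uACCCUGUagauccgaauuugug
miR-10b-5p: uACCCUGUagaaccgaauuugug
miR-196a-5p: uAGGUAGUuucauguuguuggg
miR-196b-5p: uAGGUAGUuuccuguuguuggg
miR-615-3p: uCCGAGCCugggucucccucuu

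The miR-10 genes share the seed ACCCUGU and the miR-196 genes the seed AGGUAGU, while miR-615-3p has another, CCGAGCC. The miR-196 genes differed widely in the window from 1 kb before to 1 kb after the hairpin. *Mir196b* in cluster A, which overlaps exons of longer *Hoxa9* transcripts, held 926 fragments (867 to 988). *Mir196a-1* in cluster B held 203 (176 to 233) and *Mir196a-2* in cluster C held 125 (104 to 149), although both yield the same miR-196a-5p. *Mir10a*, near *Hoxb4*, held 78 (61.7 to 97.3) and *Mir10b*, near *Hoxd4*, held 61 (46.7 to 78.4), which could not be told apart. *Mir615*, in an intron of *Hoxc5*, held 295 (262 to 331). All 6 windows were open, as were 73.1% to 94.8% of the 1-kb bins of the clusters, so nothing is read from that count. The 3 miR-196 windows came in the order of their clusters, A, B and C. These windows hold DNA of the Hox genes too, since annotated starts of *Hoxa9*, *Hoxc5*, *Hoxb4* and *Hoxd4* lie within them or close by.

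Other developmental transcription factor genes give a scale for the members. The 26 genes of this list, of the brain, limb, gut, heart and muscle, of which 25 are homeobox genes and *Hand2* is a bHLH gene, were all open, with a median of 287 fragments, from 114 at *Lhx3* to 940 at *Nkx6-1*, and with 30.8% short fragments. Without *Hand2* the median was 274. The 28 Hox genes outside cluster A had a median of 261.5 and 31.8% short fragments. In cluster A 5 of 10 members were above every gene of that list, though the intervals of *Hoxa7* and *Hoxa10* overlapped that of *Nkx6-1*, and in clusters C and D none of 9 were. In cluster B *Hoxb5*, with 941 fragments (882 to 1003), could not be told apart from *Nkx6-1* (881 to 1002), and the other 9 were below it. Over the median of the list were 9 of 10 members of cluster A, 6 of 10 of cluster B, 3 of 9 of cluster C and 4 of 9 of cluster D.

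Most genes that act on Hox clusters were more accessible than the Hox genes themselves. The 7 genes of the trithorax side, *Kmt2a* and its partners with *Dot1l* and *Kat6a*, had a median of 2525 fragments, from 1270 at *Men1* to 4709 at *Kat6a*. The 8 Polycomb genes had a median of 2446, from 575 at *Ezh1* to 3079 at *Suz12*. The 6 MEIS and PBX cofactor genes counted had a median of 1162, from 246 at *Meis3* to 1786 at *Pbx4*, and *Meis1*, which pairs with HOXA9, held 1332. All of these were above the median gene except *Meis3*. The caudal genes, which switch on Hox genes in the embryo, were low, with 209 at *Cdx1*, 261 at *Cdx2* and 71 at *Cdx4*. Short fragments made up 62.5%, 53.1%, 54.2% and 23.1% of the fragments of the 4 lists, in the order given. All genes of these 4 lists were open, against 70.1% of all genes.

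**Figure D4:**
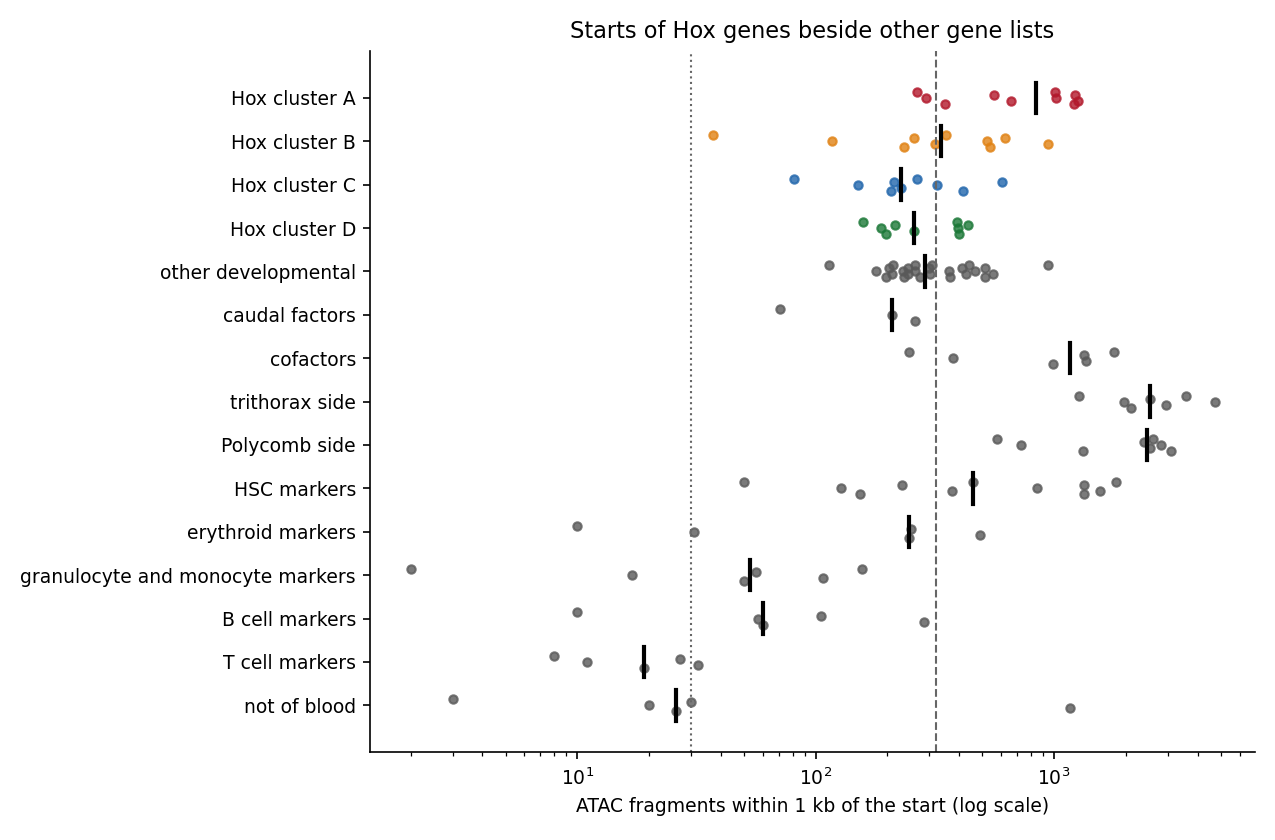
ATAC fragments within 1 kb of the start (log scale) for the Hox genes by cluster and for the genes of the other lists, each point a gene, with the median of each list as a black bar. The dashed line is the median gene (321) and the dotted line the limit for open (30). Clusters B, C and D overlap with the other developmental genes, and 5 genes of cluster A lie to the right of all of them.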

How the data were processed

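HSCs of 1 preparation were profiled by DOGMA-seq. The authors used Cell Ranger ARC 2.0.2 and its mm10 reference, which reduces duplicate pairs to single fragments and calls cells by ATAC and RNA together, and they deposited counts: fragment positions with their read-pair counts, and fragment counts per barcode, none normalized. A correction of fragment ends for the transposase offset is not described in the sources used here. A shift of a few bases does not bear on windows of 2 kb. Chromosome ends were checked against GRCm38, and no fragment lay beyond them on the 20 chromosomes used.

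Cells were kept when called and holding more than 3000 fragments in peaks. Doublets were kept. A fragment was counted once, by its midpoint, so cut sites near a window edge can fall outside. Starts were those of the GENCODE vM21 principal transcript (by APPRIS, ties by support level and length), with windows of 1000 bp on either side. Bins of 1000 bp lay on a fixed grid, and the background was the median among bins with a fragment, since 27.4% of bins held none. Members and lists were chosen with earlier results of these data known. Named genes were, in each cluster, the 2 highest and 2 lowest starts with *Hoxa5*, *Hoxa7*, *Hoxa9*, *Hoxa10*, *Hoxb3* to *Hoxb6*, *Hoxc4* and *Hoxd4*, of each other list the highest and the lowest gene, and the 3 highest bins inside and 2 in each flank. Other genes and starts were named after their values were seen. One gene of cluster A and 1 of the cofactor list are not reported here, and bins over the former were left out of the flank.

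Depth was 37191568 fragments from 188220310 read pairs in passing cells, so a window of 30 fragments rests on few molecules. The design has 1 library, so no test was made. Alternatives covered the event counted, the cells, the fragments, the background, the extent and the start. Counting was tested on simulated data. The RNA counts per gene and the antibody tags were not used here. Software was numpy 2.4.6, pandas 2.3.3, scipy 1.17.1 and matplotlib 3.10.9, under Python 3.11.15.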

Additional observations from a re-analysis of the deposited data

How the results depend on the processing

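No paired analysis was possible because there is 1 library of each kind. All 4 folds of the cluster interiors over background were recomputed under 9 settings that count other fragments, cells or extents over 1 background for all clusters, and cluster A was the highest and cluster B the next in each. The ratio of A to B ran from 2.10 to 2.65, that of A to C from 2.46 to 4.39 and that of A to D from 2.37 to 4.09. Counting cut sites left the 4 folds within their intervals. The sizes of the folds depend on the background, which is a small whole number of fragments. For clusters A, B, C and D in turn they were 31.5, 14.1, 11.8 and 12 with the median bin of all flanks as background, 23.6, 8.43, 11.8 and 36.1 with that of each cluster's own flanks, where cluster D was the highest and B the lowest, and 42.3, 18.9, 15.8 and 16.2 with the mean of bins up to the 90th percentile, the last 2 settings chosen after seeing the data. A background common to all clusters cannot change their order. They were 65.1, 29, 24.2 and 24.8 in all called cells, 52.1, 23.1, 19.4 and 19.9 without the tenth of cells with the most fragments, 21.7, 9.57, 7.53 and 7.91 in the third of cells with the fewest fragments, and 41.8, 19.2, 15.9 and 16.1 in the third with the most. With fragments shorter than nucleosomal DNA they were 38.6, 14.5, 8.78 and 9.42, with at least 2 read pairs per fragment 49.5, 21.7, 18.1 and 18.5, and with each cell counted once per bin 52.4, 25, 21.3 and 22.1. With 5 kb more on each side clusters B, C and D were at 27.1, 22.6 and 22.8 and cluster A stayed within its interval. Without *Hoxb13*, also chosen after seeing the data, cluster B was at 39.1. The number of open members was 38 under 8 of 16 settings and between 35 and 37 under the others. The ratio of anterior to posterior reversed with the outermost start (0.884), in windows of 2000 bp on either side (0.972) and without cluster A (0.932, chosen after seeing the data). It was 1.42 in windows of 500 bp, 1.37 with short fragments, 1.13 in the third of cells with the fewest fragments and 1.01 in the third with the most. The cause of these changes was not tested. Depth limits statements on single starts with few fragments, such as *Hoxb3*, and on single cells.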
